A study of Homo sapiens with 6 samples.

Results

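The lysosome is the acidic compartment in which cells break down proteins, glycans, sulfated glycosaminoglycans and lipids, and its enzymes are made as glycoproteins in the endoplasmic reticulum and sorted to it. Transcription factors of the MiT/TFE family, above all TFEB, TFE3 and MITF, bind E-box sequences near the starts of many lysosomal genes, and in fed cells the kinase complex mTORC1 holds TFEB and TFE3 in the cytoplasm. Translocations of TFE3 and TFEB define a class of renal carcinoma, and the hypoxia-inducible factors HIF-1 and HIF-2, which the VHL protein targets for degradation, are the best known transcription factors of the clear cell class. The genes described here are 35 lysosomal enzymes, activators and membrane proteins, chosen by symbol for their function from a table of 19009 genes. Earlier results of these data were known when they were chosen, so their shares beside those of all genes are descriptive. All 35 were found in it, and all 35 were among the 18273 genes with at least 1 count that were tested. They comprise 7 membrane proteins, 3 activators and carriers, 11 proteases, 8 glycosidases, 4 sulfatases and 2 lipid hydrolases.

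Messenger RNA was sequenced from RCC10, an established cell line of clear cell renal carcinoma, in 3 groups of 2 libraries. Parental cells, titled WT and marked as controls, were compared with cells that had lost HIF-1alpha and HIF-2alpha (DKO, the double knockout) and with cells given back VHL by lentivirus (VHL, here VHL-restored). Guide RNAs for the knockout were delivered by lentivirus and the cells selected in puromycin. The medium was DMEM plus 10% FBS for all groups. The sources used here describe no puromycin-selected or empty-vector control, and do not say whether an engineered line was a clone or a pool or whether the libraries of a group came from separate cultures. The p-values therefore measure only the spread between libraries, which may be technical.

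Between 22248126 and 29929116 counts were assigned per library. Levels are given as CPM, the counts of a gene scaled to a common library size after TMM, a normalization that assumes most genes do not change. A floor of 3 counts is 0.101 to 0.132 CPM, depending on the library. EPAS1, which encodes HIF-2alpha, stood at 352 and 349 CPM in the parental libraries, 44.4 and 47.97 in the double knockout and 363 and 369 with VHL restored. For HIF1A the values were 69.5 and 72.9, 29.6 and 31.6, and 304 and 286 CPM, so both targeted transcripts were lower in the double knockout but still present, and HIF1A was highest in the VHL-restored cells. VHL itself was at 38.8 and 39.5, 43.3 and 47.3, and 652 and 723 CPM in the same order. The 8 markers listed for renal epithelial origin were PAX8, PAX2, KRT8, KRT18, KRT19, CDH2, CDH16 and VIM. All 8 had counts, and several moved with the groups. By the test described below, 5 were higher than parental and 2 lower in the double knockout (62.5% and 25%). Among genes with a mean of at least 10 counts 34.5% were higher and 35.1% lower. With VHL restored 4 were higher and 3 lower (50% and 37.5%), against 34.1% and 35.5%. The 8 markers summed to 8955 and 8912 CPM in the parental, 7393 and 7404 in the double-knockout and 6207 and 6536 in the VHL-restored libraries. Most of that sum was VIM (log2 fold changes -0.57 and -1.17), so it does not show the direction of the other markers. KRT18 rose 2.42-fold and 2.74-fold, while in the double knockout CDH16 fell 17.5-fold and PAX2 rose 9.31-fold. The summed level of the leukocyte and macrophage markers was 2.83 to 4.34 CPM in the 6 libraries. The 2 endothelial markers with counts, VWF and TEK, summed to 0.239 to 1.86 CPM. In bulk RNA, fewer cells of a type cannot be told apart from less RNA per cell.

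The E-boxes that MiT/TFE factors are known to bind are shown first, because they are the regulatory sequence these genes are best known for. RefSeq promoters of GRCh38.p14, from 250 bases before to 50 bases after a transcription start, were given for 24 of the 35 genes, as 36 promoters. The E-box CACGTG, a palindrome that reads the same on both strands, occurred in 25.0% of those 36 promoters and in 7.26% of all 35116 promoters of the same length. It was found for 9 genes, namely ARSB, CD63, CTSA, CTSD, CTSF, GAA, LAMP1, MCOLN1 and NEU1. The longer CLEAR element, an E-box with fixed flanking letters that is known from lysosomal genes, occurred for GAA and MCOLN1, in 5.56% of the 36 promoters and 0.353% of all promoters. Stretches upstream of the start are printed below 5′ to 3′ on the strand of the gene, with each CACGTG in capitals. They show that the motif is repeated in LAMP1, GAA, MCOLN1, CTSA and CTSF and single in CTSD, NEU1 and ARSB.
LAMP1, chr13:113297039-113297238, plus strand: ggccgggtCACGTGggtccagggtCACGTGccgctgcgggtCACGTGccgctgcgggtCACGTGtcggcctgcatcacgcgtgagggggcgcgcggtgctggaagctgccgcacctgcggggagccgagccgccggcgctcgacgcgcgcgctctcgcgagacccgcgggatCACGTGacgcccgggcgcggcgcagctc
GAA, chr17:80101481-80101580, plus strand: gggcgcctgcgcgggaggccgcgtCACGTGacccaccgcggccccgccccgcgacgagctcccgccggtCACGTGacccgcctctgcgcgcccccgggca
MCOLN1, chr19:7522564-7522623, plus strand: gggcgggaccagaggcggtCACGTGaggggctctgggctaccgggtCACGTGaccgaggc
CTSA, chr20:45891275-45891334, plus strand: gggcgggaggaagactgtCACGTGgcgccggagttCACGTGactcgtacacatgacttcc
CTSD, chr11:1763928-1763997, minus strand: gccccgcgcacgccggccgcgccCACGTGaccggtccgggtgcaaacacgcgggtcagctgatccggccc
CTSF, chr11:66568637-66568746, minus strand: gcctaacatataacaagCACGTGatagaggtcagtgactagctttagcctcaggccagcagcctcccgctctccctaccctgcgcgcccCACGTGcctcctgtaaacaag
NEU1, chr6:31862902-31862961, minus strand: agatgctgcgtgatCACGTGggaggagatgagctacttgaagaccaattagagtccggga
ARSB, chr5:78986079-78986128, minus strand: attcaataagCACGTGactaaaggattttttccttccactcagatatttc

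LAMP1 has 5 whole motifs in the 200 bases before its start, and its promoter holds another that crosses the start. The core of the hypoxia response element known to bind HIF was searched as ACGTG and as GCGTG, on both strands. ACGTG, which every E-box CACGTG also contains, occurred in 38.9% of the 36 promoters and 21.4% of all, and GCGTG in 41.7% and 36.5%. Some CD63 promoters with ACGTG overlap each other, so the 38.9% counts some bases more than once. Counted by gene, a gene counts if any of its promoters holds the motif, so CD63 with its 8 promoters has more chances than most. On that count ACGTG occurred for 45.8% of the 24 and 24.9% of all 27305 genes. GCGTG occurred for 62.5% and 40.6%, and CACGTG for 37.5% and 8.77%. The 11 genes with ACGTG were the 9 with CACGTG, plus GLA and SCARB2. These matches describe letters in a window and no binding was measured.

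In the parental cells the 35 genes made up 1.42% and 1.40% of all counts. The share was 0.905% and 0.901% in the double-knockout libraries and 0.842% and 0.865% in the VHL-restored libraries, so neither engineered line overlapped the parental libraries. Much of that difference lay in CTSD, the aspartic protease cathepsin D. Without it the share was 0.916% and 0.902% in parental, 0.726% in both double-knockout and 0.594% and 0.617% in VHL-restored libraries. Per kilobase of merged exon, on the RPKM scale, CTSD was the most abundant of the 35 in parental cells with a mean of 2321, followed by CTSZ with 1185 and PSAP with 807. In the double knockout CTSZ stood first with a mean RPKM of 1088 and CTSD came after it with 847. With VHL restored CTSD was again first, with 1163 against 952 for CTSZ. CTSS, a cathepsin of antigen-presenting cells, was lowest in every group, with 11 and 7 counts in the parental, 15 and 9 in the double-knockout and 3 and 2 in the VHL-restored libraries.

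The first comparison asks how loss of both HIF alpha subunits changed lysosomal transcripts. By edgeR's quasi-likelihood test, with p-values adjusted over all 18273 genes by Benjamini-Hochberg and a threshold of 0.05, 17 of the 35 genes fell in the double knockout and 8 rose. The other 10 did not pass. Of all genes tested, 27.5% fell and 26.6% rose in this comparison. Most of the lysosomal genes are well expressed, and a closer background is the set of genes with a mean of at least 10 counts, which holds 34 of the 35. Among such genes 35.1% fell and 34.5% rose, and of the 34 lysosomal genes 17 fell and 8 (23.5%) rose. The median log2 fold change of the 35 was -0.14, against 0 over all genes tested. At a change of at least 1.5-fold, 9 genes fell (16.6% of all genes tested) and 2 rose (12.9%). Of the 34, 9 fell and 2 rose at that size, against 2816 and 2226 of the 13702 genes with a mean of at least 10 counts.

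The second comparison asks how VHL restoration changed them. Here 27 of the 35 genes fell and 4 rose, where 27.7% of all genes tested fell and 26.5% rose. Among genes with a mean of at least 10 counts, 35.5% fell and 34.1% rose, against 76.5% and 11.8% of the 34 lysosomal genes. The median log2 fold change of the 35 was -0.70, and at 1.5-fold or more 19 fell and 1 rose (15.2% and 12.8% of all genes tested). Of the 34, 18 fell and 1 rose at that size, against 2591 and 2164 of the 13702 genes with a mean of at least 10 counts. Markers of other cells moved with the groups too. The summed osteoclast markers, nearly all TNFRSF11A, were at 18.8 and 17.6 CPM in the parental, 19.97 and 21.1 in the double-knockout and 7.05 and 5.43 in the VHL-restored libraries, and 3 of the 3 tested fell with VHL restored. The defining osteoclast enzyme ACP5 was at or below 0.303 CPM in every library. Fibroblast markers, nearly all PDGFRB, summed to 8.93 and 8.78, 2.39 and 2.25, and 14.3 and 14.5 CPM in the same order, with PDGFRA and DCN at or below 0.214 CPM. The part of these markers, and of the renal ones, in the lysosomal counts was not tested. Both comparisons use the same parental libraries, so the values in the engineered lines are set side by side below and are not independent of each other.

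**Figure D1:**
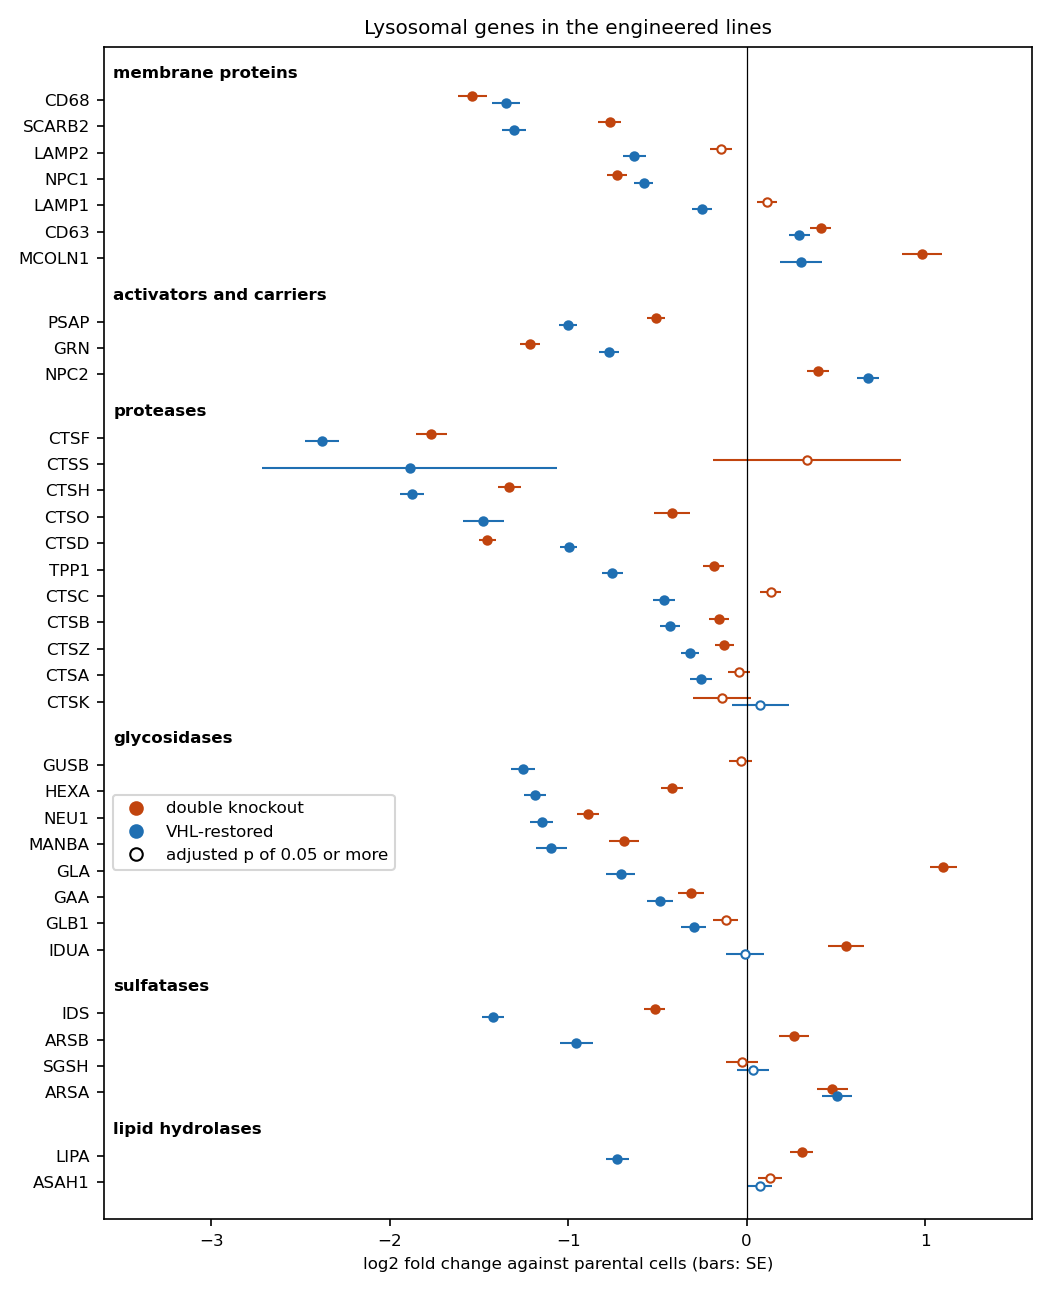
Log2 fold change of each of the 35 lysosomal genes against parental cells, by functional class, in the double knockout (orange) and after VHL restoration (blue). Points are edgeR estimates from 2 libraries a group, bars are standard errors, and open points did not pass an adjusted p of 0.05. With VHL restored 27 genes fell and 4 rose, and in the double knockout 17 fell and 8 rose.

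Of the 7 membrane proteins, 3 fell and 2 rose in the double knockout, and 5 fell and 2 rose with VHL restored. Counts by class here and below are to be read against the shares among genes with a mean of at least 10 counts given above, and in the double knockout the membrane proteins, with 42.9% and 28.6%, were near them. SCARB2, also called LIMP-2, carries glucocerebrosidase to the lysosome. Its levels were 193 and 201 CPM in the parental, 109 and 122 in the double-knockout and 81.6 and 77.9 in the VHL-restored libraries. It was thus highest in both parental libraries and lowest in both VHL-restored ones, with log2 fold changes of -0.77 ± 0.06 (SE) in the double knockout and -1.30 ± 0.07 with VHL restored (adjusted p 7.17e-12 and 3.55e-17). CD68, a heavily glycosylated membrane protein best known from macrophages, was at 64.5 and 60.3 CPM in the parental, 22.2 and 20.9 in the double-knockout and 23.1 and 25.98 in the VHL-restored libraries. It fell in both engineered lines, 2.901-fold and 2.54-fold. Of 10 leukocyte and macrophage markers listed, PTPRC and CD3E had no counts in any library, CD14, CD163 and SPI1 stayed at or below 0.357 CPM, and CSF1R, ITGAM and ITGAX reached 1.07, 3.04 and 2.56 CPM. Their part in the CD68 result was not tested. NPC1, which exports cholesterol from the lysosome, had 508 and 497 CPM in the parental, 305 and 302 in the double-knockout and 348 and 326 in the VHL-restored libraries. Those values gave a fall of 0.73 ± 0.06 (SE) on the log2 scale in the double knockout and of 0.58 ± 0.06 with VHL restored.

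LAMP2, one of the pair of glycoproteins that line the lysosomal membrane, was at 279.5 and 282 CPM in the parental, 237 and 271 in the double-knockout and 186 and 177 in the VHL-restored libraries. It fell with VHL restored, by 0.63 on the log2 scale (adjusted p 3.80e-10), and did not pass in the double knockout (log2 fold change -0.14, adjusted p 0.0536). LAMP1, its partner, behaved alike in its calls, with log2 fold changes of 0.12 (not passed) in the double knockout and -0.25 with VHL restored. MCOLN1, the calcium channel TRPML1, was at 9.87 and 11.4 CPM in the parental, 23.5 and 18.2 in the double-knockout and 12.9 and 13.2 in the VHL-restored libraries. It rose 1.98-fold in the double knockout (adjusted p 4.35e-09), and those libraries differed from each other more than those of the other groups did. Its smaller rise with VHL restored, 0.30 ± 0.12 (SE) on the log2 scale, did not pass without parental replicate 1 (adjusted p 0.393), without parental replicate 2 or VHL replicate 2, or with DESeq2. The tetraspanin CD63 rose in both lines, by 0.42 in the double knockout and 0.30 with VHL restored on the log2 scale.

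The 3 activators and carriers did not move together. PSAP, which encodes the precursor of the saposins that present sphingolipids to their hydrolases, was at 2373 and 2276 CPM in the parental, 1664 and 1607 in the double-knockout and 1141 and 1178 in the VHL-restored libraries. It fell 1.42-fold in the double knockout and 2.004-fold with VHL restored. Progranulin, encoded by GRN and cut into granulins in the lysosome, was at 617 and 581 CPM in the parental, 263 and 253 in the double-knockout and 353 and 349 in the VHL-restored libraries. Its lowest values were in the double knockout, where it fell 2.32-fold (adjusted p 3.79e-18), against 1.71-fold with VHL restored (adjusted p 2.58e-13). NPC2, the soluble protein that hands cholesterol to NPC1, went the other way. Its levels were 193 and 179 CPM in the parental, 246 and 246 in the double-knockout and 281 and 316 in the VHL-restored libraries, a rise of 0.40 ± 0.06 (SE) and 0.68 ± 0.06 on the log2 scale.

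**Figure D2:**
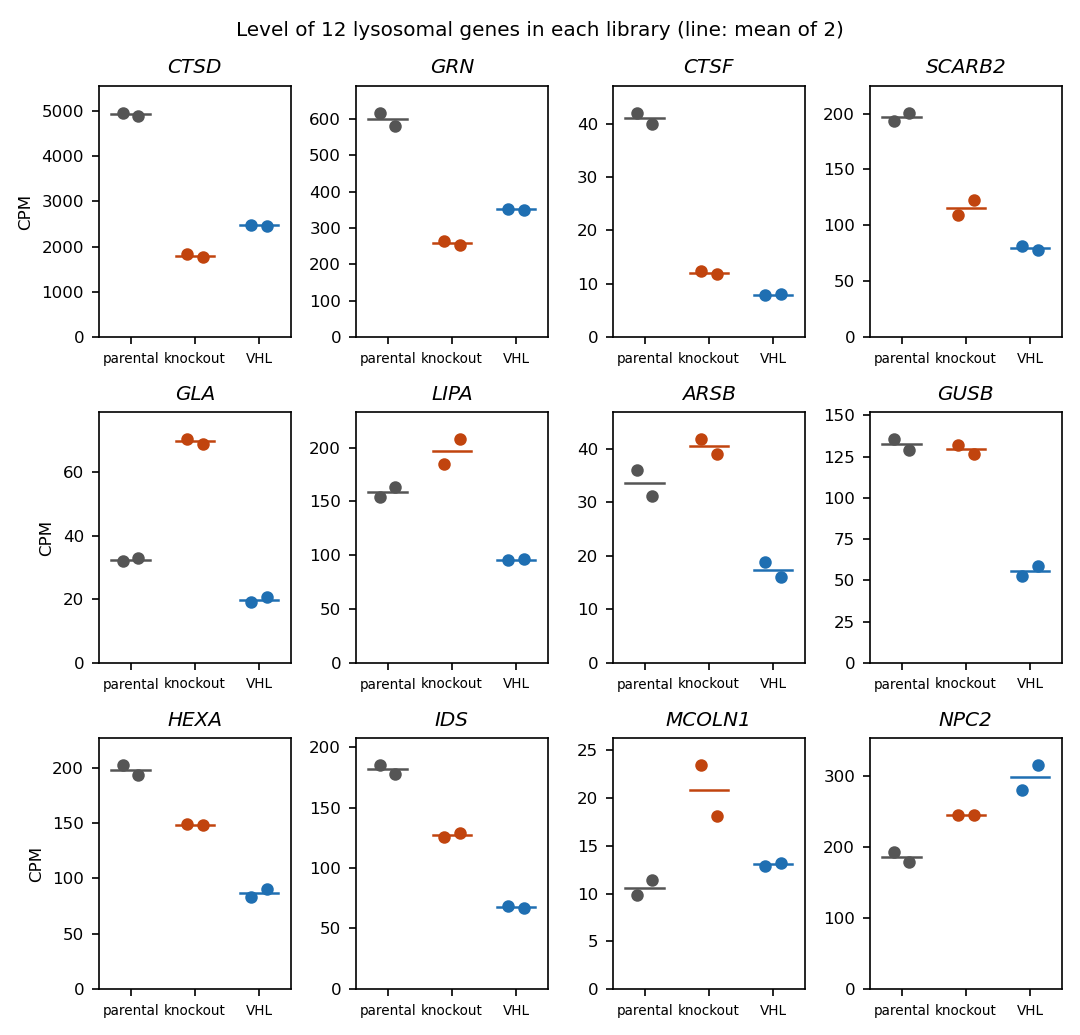
Level of 12 lysosomal genes in each of the 6 libraries, in CPM on linear axes from 0, in parental (grey), double-knockout (orange) and VHL-restored (blue) cells. Each point is a library and each line the mean of 2. CTSD and GRN were lowest in the double knockout, SCARB2, CTSF, HEXA and IDS were lowest with VHL restored, and GLA, LIPA and ARSB were highest in the double knockout and lowest with VHL restored.

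Of the 11 proteases, none rose in either engineered line, 7 fell in the double knockout and 10 fell with VHL restored. Cathepsin D (CTSD), the main aspartic protease of the compartment, was at 4958 and 4897 CPM in the parental, 1829.8 and 1767 in the double-knockout and 2473 and 2465 in the VHL-restored libraries. It fell 2.74-fold in the double knockout (log2 -1.45 ± 0.05, SE, adjusted p 6.70e-22) and 1.996-fold with VHL restored (log2 -0.997 ± 0.05, adjusted p 1.05e-17). CTSF and CTSH are cysteine cathepsins, and CTSF had the largest fall of the 35 genes in both lines. CTSF was at 42.02 and 40.002 CPM in the parental, 12.4 and 11.7 in the double-knockout and 7.798 and 7.97 in the VHL-restored libraries, a fall of 3.401-fold and 5.205-fold. For CTSH the values were 159 and 154 CPM in the parental, 63.01 and 61.4 in the double-knockout and 43.1 and 42.1 in the VHL-restored libraries, with falls of 2.51-fold and 3.67-fold. In both genes the VHL-restored libraries were below the double-knockout libraries, the reverse of the order in CTSD.

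CTSO, another cysteine cathepsin, was at 15.2 and 15.5 CPM in the parental, 12.04 and 10.95 in the double-knockout and 5.37 and 5.68 in the VHL-restored libraries. Its fall was small in the double knockout (-0.42 ± 0.10, SE, log2) and larger with VHL restored (-1.48 ± 0.11). TPP1, the tripeptidyl peptidase lost in a childhood neuronal ceroid lipofuscinosis, was at 245 and 249.9 CPM in the parental, 213 and 223 in the double-knockout and 152 and 142 in the VHL-restored libraries. CTSC, which activates granule serine proteases, had 162 and 161 CPM in the parental, 178 and 177 in the double-knockout and 114 and 120.4 in the VHL-restored libraries, and fell with VHL restored (log2 -0.46) without passing in the double knockout (log2 0.14, adjusted p 0.0531). CTSS stood near the floor, and its fall with VHL restored (log2 -1.89 ± 0.83, SE, adjusted p 0.0294) was lost with DESeq2 and without any 1 of the parental or VHL-restored libraries. The remaining proteases moved less. With VHL restored CTSB, CTSZ and CTSA fell by 0.43, 0.32 and 0.25 on the log2 scale, the last of these not passing without parental replicate 1 (adjusted p 0.0925). In the double knockout the small falls of TPP1, CTSB and CTSZ (log2 -0.18, -0.15 and -0.12) each failed the threshold without parental replicate 1 or without parental replicate 2. So did TPP1 without DKO replicate 1, CTSB without DKO replicate 2 and CTSZ without either of these, and CTSB and CTSZ failed it with median centring. The collagen-cutting CTSK, low at 3.57 and 3.35 CPM in parental cells, passed in neither comparison, with intervals of -0.47 to 0.20 and -0.25 to 0.40.

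Of the 8 glycosidases, 4 fell and 2 rose in the double knockout, and 7 fell and none rose with VHL restored. GLA encodes alpha-galactosidase A, the enzyme missing in Fabry disease. Its levels were 31.8 and 32.9 CPM in the parental, 70.3 and 68.8 in the double-knockout and 19.2 and 20.5 in the VHL-restored libraries. The double-knockout libraries were thus above, and the VHL-restored libraries below, both parental libraries. GLA rose 2.15-fold in the first line (adjusted p 3.29e-14) and fell 1.63-fold in the other (adjusted p 7.72e-09). GUSB, beta-glucuronidase, was at 136 and 129 CPM in the parental, 132 and 126 in the double-knockout and 52.5 and 58.5 in the VHL-restored libraries. Its double-knockout libraries overlapped the parental ones (log2 -0.03, 95% interval -0.17 to 0.10), while it fell 2.38-fold with VHL restored. HEXA, the alpha subunit of beta-hexosaminidase, had 202 and 194 CPM in the parental, 149 and 148 in the double-knockout and 83.3 and 90.7 in the VHL-restored libraries. It fell in both lines, by 0.42 and 1.19 on the log2 scale.

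NEU1, the lysosomal sialidase, was at 148 and 142 CPM in the parental, 79.5 and 77.3 in the double-knockout and 66.5 and 64.5 in the VHL-restored libraries, a fall of 1.85-fold in the double knockout and 2.22-fold with VHL restored. MANBA, beta-mannosidase, had 31.3 and 29.99 CPM in the parental, 18.7 and 19.4 in the double-knockout and 14.6 and 14.2 in the VHL-restored libraries, with falls of 1.61-fold and 2.14-fold. For these 2 enzymes neither engineered line overlapped the parental libraries. GAA, which degrades glycogen, fell less (log2 -0.31 and -0.49), and GLB1, beta-galactosidase, passed only with VHL restored (log2 -0.12 and -0.30). IDUA, which removes iduronic acid from heparan and dermatan sulfate, rose in the double knockout by 0.56 and did not pass with VHL restored (95% interval -0.23 to 0.21).

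Among the 4 sulfatases, IDS acts beside IDUA on the same glycosaminoglycans, and its levels were 185 and 178 CPM in the parental, 126 and 129 in the double-knockout and 68.7 and 66.8 in the VHL-restored libraries. It fell by 0.51 ± 0.06 (SE) in the double knockout and by 1.42 ± 0.06 with VHL restored on the log2 scale. ARSB, which desulfates dermatan and chondroitin sulfate, was at 35.96 and 31.1 CPM in the parental, 41.8 and 39.1 in the double-knockout and 18.8 and 15.97 in the VHL-restored libraries. It fell 1.94-fold with VHL restored (adjusted p 1.67e-10). Its rise in the double knockout was small (0.27 ± 0.08, SE, log2, adjusted p 0.00791) and was lost without parental replicate 2 (adjusted p 0.254) or DKO replicate 1. ARSA, arylsulfatase A, rose in both lines (log2 0.48 and 0.51), and SGSH passed in neither, with intervals of -0.21 to 0.16 and -0.15 to 0.22. Of the lipid hydrolases, LIPA, the acid lipase that frees cholesterol from its esters, was at 154 and 163 CPM in the parental, 185 and 208 in the double-knockout and 95.9 and 96.1 in the VHL-restored libraries. Its double-knockout libraries lay above both parental libraries and its VHL-restored libraries below them, with log2 fold changes of 0.31 ± 0.06 and -0.72 ± 0.06 (adjusted p 1.06e-04 and 3.96e-11). The acid ceramidase ASAH1 passed in neither comparison (95% intervals -0.01 to 0.27 and -0.06 to 0.21). GLA, LIPA and ARSB were the genes among the 35 that passed in opposite directions against parental cells.

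The engineered lines were also compared with each other, which uses neither parental library in the contrast. In this test of the difference itself, 25 of the 35 genes were higher in the double knockout than with VHL restored and 4 were lower, where 28.0% of all genes tested were higher and 28.0% lower. Among genes with a mean of at least 10 counts, 36.1% were higher and 35.6% lower, against 70.6% and 11.8% of the 34 lysosomal genes. The median log2 difference of the 35 was 0.41. Of those at 1.5-fold or more, 11 were higher (14.4% of all genes tested) and none was lower (16.0%). Of the 34, 10 were higher and none lower at that size, against 2476 and 2697 of the 13702 genes with a mean of at least 10 counts. The 4 that were lower in the double knockout were CTSD, GRN, NPC2 and NPC1, with log2 differences of -0.46, -0.44, -0.28 and -0.15. NPC1 lost its call without any 1 library other than VHL replicate 2. All 8 glycosidases were higher in the double knockout, from 0.18 for GAA to 1.81 for GLA, though GAA and GLB1 lost their calls with upper-quartile scaling, with the parental libraries left out of the fit, and without DKO replicate 1. GLB1 lost it too without VHL replicate 1, GAA without VHL replicate 2, and both without either parental library. CTSA, higher by 0.21, did not pass without DKO replicate 1.

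GLA had the largest difference among the well-counted genes, 3.501-fold (log2 1.81 ± 0.08, SE, adjusted p 5.38e-19). GUSB and ARSB followed, each 1.22 ± 0.07 and 1.22 ± 0.09 on the log2 scale, then CTSO with 1.06 ± 0.12 and LIPA with 1.03 ± 0.06. The intervals of these 4 overlapped one another, so their order is not fixed by the data. IDS, HEXA, MCOLN1, CTSF and CTSC were higher by 0.91, 0.77, 0.68, 0.61 and 0.60. CTSS was higher by 2.23 ± 0.80 (SE) from a few counts, a call that was lost with DESeq2 and without DKO replicate 1 or VHL replicate 2. Genes that did not pass were CD63, CD68, CTSK, SGSH, ARSA and ASAH1.

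**Figure D3:**
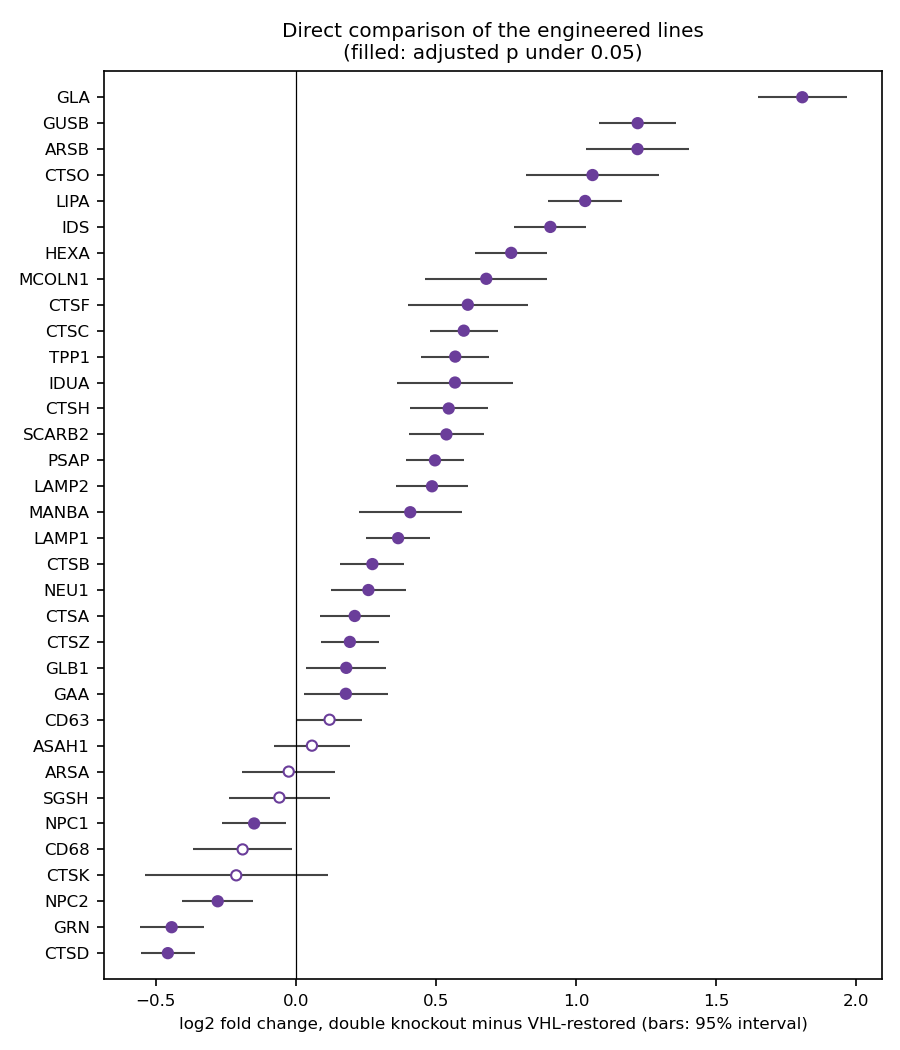
Log2 fold change of 34 lysosomal genes between the double knockout and the VHL-restored cells, sorted, from 2 libraries a group. Bars are 95% intervals, filled points passed an adjusted p of 0.05, and CTSS is left out because its few counts give a very wide interval. GLA is at 1.81, and CTSD, GRN, NPC2 and NPC1 are the filled points below 0.

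The genes with an E-box in a RefSeq promoter were not all on the same side. Of the 9, 4 fell and 3 rose in the double knockout, which is near the 35.1% and 34.5% among genes with a mean of at least 10 counts. With VHL restored 7 fell and 2 rose, where 35.5% and 34.1% of such genes did. In the direct comparison 7 were higher in the double knockout and 1, CTSD, was lower, where 36.1% and 35.6% of such genes were. The next counts are to be read against the same shares. Of the 15 genes whose promoters held no CACGTG, 8 fell and 4 rose in the double knockout, 13 fell and 1 rose with VHL restored, and 11 were higher and 3 lower in the direct comparison. Median log2 fold changes were -0.04 with and -0.12 without the motif in the double knockout, and -0.49 and -0.72 with VHL restored. In the direct comparison they were 0.26 and 0.55. CTSF with 2 E-boxes had the largest fall among the 35, while MCOLN1 with 2 rose in the double knockout and LAMP1, with the most, moved little.

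The transcription factors of the family differed from each other. MITF, the master regulator of melanocytes and osteoclasts, was at 71.4 and 67.1 CPM in the parental, 7.76 and 8.82 in the double-knockout and 5.69 and 6.07 in the VHL-restored libraries. It fell 8.38-fold in the double knockout (adjusted p 2.61e-23) and 11.8-fold with VHL restored (adjusted p 2.13e-24), more than any of the 35 lysosomal genes in either line. TFEB was low throughout, at 5.22 and 5.29 CPM in the parental, 2.36 and 1.71 in the double-knockout and 7.404 and 8.68 in the VHL-restored libraries. It fell in the double knockout (log2 -1.35 ± 0.18, SE) and rose with VHL restored (0.61 ± 0.13). TFE3, like TFEB a factor held back by mTORC1, was at 95.2 and 89.3 CPM in the parental, 138 and 122 in the double-knockout and 77.5 and 76.97 in the VHL-restored libraries. Its rise in the double knockout was 0.49 ± 0.07 (SE) on the log2 scale, and its fall with VHL restored, -0.26 ± 0.07, was lost without parental replicate 1 (adjusted p 0.12). In the direct comparison TFE3 was higher and TFEB lower in the double knockout, with log2 differences of 0.75 and -1.97. TFEC had 1 count in the parental, 18 in the double-knockout and 3 in the VHL-restored libraries together, a ratio of 17.1 in the double knockout with an exact 95% counting interval of 2.71 to 714. The RefSeq promoters of MITF, TFEB and TFE3 held no CACGTG.

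**Figure D4:**
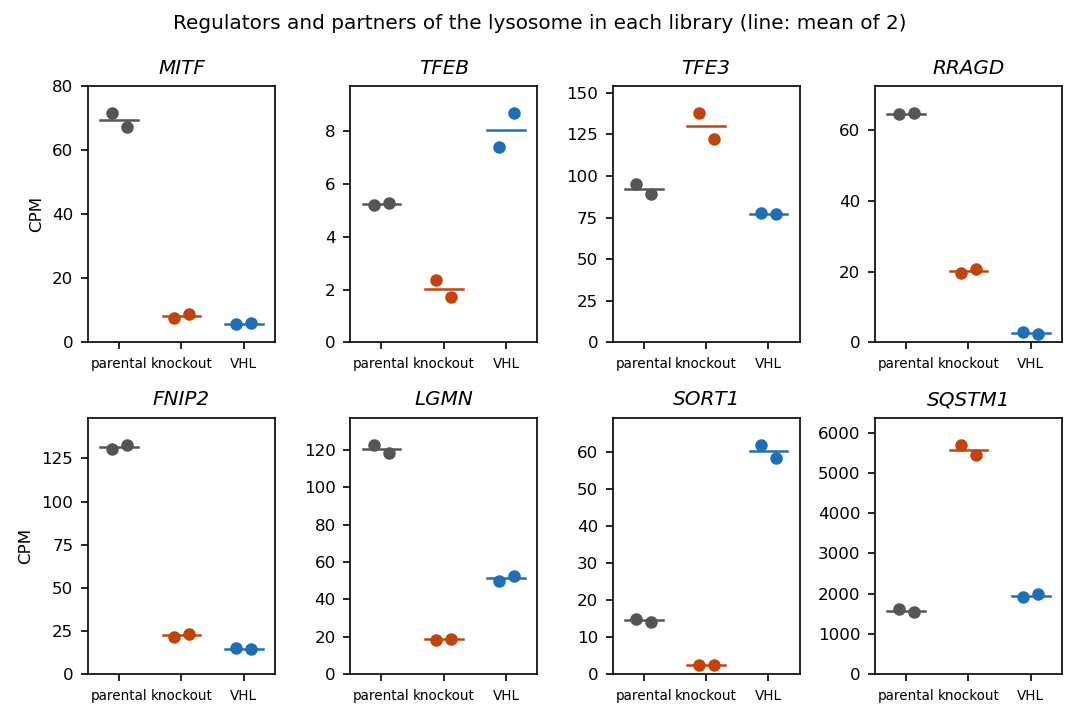
Level of 3 MiT/TFE transcription factors, the protease gene LGMN, and genes of lysosomal signalling, sorting and autophagy in each library, in CPM on linear axes from 0. Points are libraries and lines the mean of 2. MITF, RRAGD and FNIP2 were highest in both parental libraries, SORT1 was highest with VHL restored, and SQSTM1 was highest in the double knockout.

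Lysosomal hydrolases and cofactors outside the 35 are described from a list of 35 others, of which 32 were in the table. The list also holds the transporter SPNS1 and the acetyltransferase HGSNAT. In the double knockout 17 of the 32 fell (53.1%) and 4 rose (12.5%), with a median log2 fold change of -0.31. With VHL restored 25 fell (78.1%) and 2 rose (6.25%), with a median of -0.83. The 4 became 2 without either parental library or with upper-quartile scaling, and the 2 became 1 without a parental library or VHL replicate 1. In the direct comparison 18 were higher and 4 lower (56.25% and 12.5%), with a median of 0.42. Among genes with a mean of at least 10 counts, 35.1% fell and 34.5% rose in the double knockout. With VHL restored 35.5% of such genes fell and 34.1% rose, and in the direct comparison 36.1% were higher and 35.6% lower. LGMN, the asparaginyl protease that processes cathepsins, was at 123 and 118 CPM in the parental, 18.3 and 18.9 in the double-knockout and 49.8 and 52.7 in the VHL-restored libraries. FUCA1, which removes fucose, had 50.5 and 53.2 CPM in the parental, 143 and 149 in the double-knockout and 43.2 and 46.4 in the VHL-restored libraries. LGMN was thus lowest in the double knockout, as were CTSD and GRN, and FUCA1 was highest there, as was GLA. DNASE2, which digests DNA in the lysosome, fell by 0.60 in the double knockout and 2.70 with VHL restored on the log2 scale. GALC, the galactosylceramidase, had 74 counts in the parental libraries together, 1 in the double knockout and 0 with VHL restored. That is a ratio of 77.7 (exact 95% counting interval 13.5 to 3111) in the first case, and at least 26.4-fold lower in the other, against a floor of 3 counts over the group.

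Other membrane proteins and transporters of the lysosome numbered 22, of which 10 fell and 8 rose in the double knockout (45.5% and 36.4%) and 13 fell and 3 rose with VHL restored (59.1% and 13.6%). The 8 rises became 3 without parental replicate 1 and 5 without parental replicate 2 or DKO replicate 1. SLC36A1, which exports amino acids from the lysosome, was at 17.1 and 13.8 CPM in the parental, 41.2 and 37.3 in the double-knockout and 9.12 and 8.61 in the VHL-restored libraries, with the same order of groups as GLA. The proton pump that acidifies the compartment, the vacuolar ATPase, was represented by 23 genes of subunits and accessory proteins. In the double knockout 9 rose and 9 fell, 39.1% each way and near the 34.5% and 35.1% among genes with a mean of at least 10 counts. The 23 were not filtered by count. The falls included ATP6V0D2 and ATP6V1G2, each with 3 counts in the double-knockout libraries together, against 16 and 17 in the parental. With VHL restored 5 rose and 11 fell, 21.7% and 47.8% against 34.1% and 35.5%. The 9 falls became 4 without either parental library and 5 without DKO replicate 2 or with DESeq2, and the 5 rises became 3 without parental replicate 1. Its summed level was 1587 and 1570.1 CPM in the parental, 1836 and 1849 in the double-knockout and 1293 and 1336 in the VHL-restored libraries. The ATPase sum was therefore above parental in the double knockout, where the sum of the 35 genes was below it. Direct comparison gave 15 of the 23 higher in the double knockout, among them ATP6V0E1 with a log2 difference of 1.21, and 3 lower. These were 65.2% and 13.0%, against 36.1% and 35.6% of genes with a mean of at least 10 counts.

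**Figure D5:**
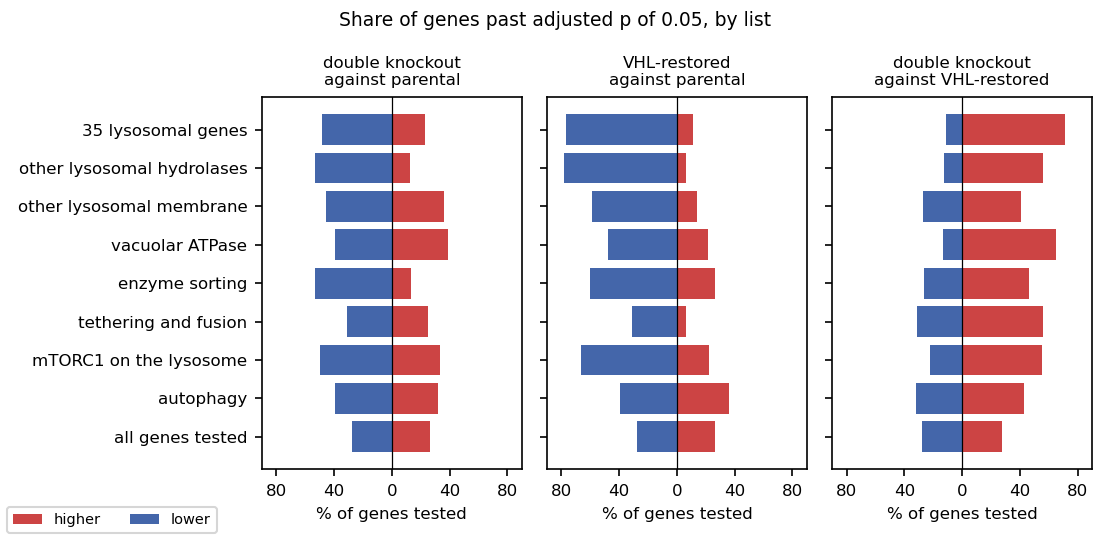
Percent of the tested genes of each list that were higher (red, right) or lower (blue, left) at an adjusted p under 0.05, in the 3 comparisons. The lowest bar is all 18273 genes tested. Genes with a mean of at least 10 counts, of which 35.5% fell and 34.1% rose with VHL restored, are not drawn. The list labelled other lysosomal hydrolases also holds cofactors, SPNS1 and HGSNAT. It and the 35 lysosomal genes have the longest bars to the left with VHL restored, 78.1% and 77.1%. The vacuolar ATPase is evenly divided in the double knockout, 39.1% in each direction.

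Genes that sort enzymes to the lysosome numbered 15. In the double knockout 8 fell and 2 rose (53.3% and 13.3%), against 35.1% and 34.5% of genes with a mean of at least 10 counts. With VHL restored 9 fell and 4 rose (60% and 26.7%), against 35.5% and 34.1%. GNPTAB encodes the enzyme that starts the mannose 6-phosphate tag and stood at 335 and 338 CPM in the parental, 159.7 and 178 in the double-knockout and 175 and 162 in the VHL-restored libraries. It fell in both engineered lines, and the direct comparison between them had a 95% interval of -0.13 to 0.13 on the log2 scale. SORT1, the sorting receptor sortilin that carries progranulin and prosaposin, was at 14.996 and 14.1 CPM in the parental, 2.43 and 2.41 in the double-knockout and 61.99 and 58.5 in the VHL-restored libraries. It was 6.02-fold lower than parental in the double knockout and 4.13-fold higher with VHL restored (adjusted p 1.91e-17 and 1.09e-19). Of 16 tethering and fusion genes tested, 5 fell and 4 rose in the double knockout and 5 fell and 1 rose with VHL restored, the 1 becoming 2 without VHL replicate 1. The falls, 31.3% in each line, were no more frequent than the 35.1% and 35.5% among genes with a mean of at least 10 counts. VAMP8, a SNARE of late endosomes, fell by 2.84 ± 0.14 (SE) on the log2 scale in the double knockout and did not pass with VHL restored (95% interval -0.15 to 0.24).

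Of the 18 genes of mTORC1 signalling on the lysosome, 9 fell and 6 rose in the double knockout and 12 fell and 4 rose with VHL restored, against the shares given above of 35.1% to 35.5% that fell and 34.1% to 34.5% that rose among genes with a mean of at least 10 counts. RRAGD, a Rag GTPase known as a target of MiT/TFE factors, was at 64.5 and 64.8 CPM in the parental, 19.7 and 20.7 in the double-knockout and 2.93 and 2.32 in the VHL-restored libraries. FNIP2, a partner of folliculin, had 130.3 and 133 CPM in the parental, 21.4 and 23.2 in the double-knockout and 15.2 and 14.3 in the VHL-restored libraries. Both were highest in the parental and lowest in the VHL-restored libraries, an order that MITF shared. They were named for the size of their changes, while 6 of the 18 genes rose in the double knockout. A link of either gene to MITF was not tested. Among 28 autophagy genes tested, 11 fell and 9 rose in the double knockout, and 11 fell and 10 rose with VHL restored. These shares, 39.3% and 32.1%, then 39.3% and 35.7%, were near those of genes with a mean of at least 10 counts. The first of these counts became 5 without parental replicate 1 or DKO replicate 1 and 6 without parental replicate 2. SQSTM1, the receptor p62 that brings cargo to autophagosomes, was at 1608 and 1545 CPM in the parental, 5696 and 5450.1 in the double-knockout and 1904 and 1977 in the VHL-restored libraries, a rise of 3.53-fold in the double knockout. BNIP3, a mitophagy receptor and well known HIF target, fell by 2.35 and 3.32 on the log2 scale.

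Inhibitors of the cysteine cathepsins were listed as 12 genes, of which 9 were tested. In the double knockout 4 rose (44.4%) and none fell, the 4 becoming 1 with edgeR's filter on low counts. With VHL restored 4 rose (44.4%) and 1 fell (11.1%). Of all genes tested 26.6% and 26.5% rose in these comparisons. Several inhibitors had few counts. CST1, CST4 and CST7 had 17, 19 and 15 in the double-knockout libraries together and 0, 1 and 0 in the parental, and CST4 had 16 with VHL restored. CSTB, the cytosolic inhibitor cystatin B, was at 531 and 553 CPM in the parental, 538 and 542 in the double-knockout and 89.96 and 97.1 in the VHL-restored libraries. It fell 5.79-fold with VHL restored (adjusted p 1.28e-25) and did not pass in the double knockout, with a 95% interval of -0.12 to 0.11 on the log2 scale. The secreted CST2 was low but rose in both lines, from 1.08 and 1.4995 CPM in parental to 6.84 and 6.99 in the double-knockout and 9.09 and 9.79 in the VHL-restored libraries. CST2 is close in sequence to CST1 and CST4, so its level is uncertain.

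Values of some of the 35 genes may include reads of other genes, since the sources used here do not give the strand setting or the handling of shared reads. In the GENCODE 29 annotation NEURL2 and PLTP overlap 10.4% and 8.55% of CTSA's merged exons on the opposite strand, and SLC26A1 overlaps 5.60% of IDUA's. For HEXA the antisense gene HEXA-AS1 covers 6.02%, and for NPC1 the gene RMC1 covers 3.55%. Gene models named only by clone share larger parts on the same strand. They cover 95.3% of CD68, 54.9% of CTSD, 17.0% of IDS, 14.2% of TPP1 and 10.2% of HEXA, so reads of these genes could have been split or dropped in counting. GUSB and IDS have pseudogene copies, and their levels are uncertain for that reason.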

How the data were processed

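Messenger RNA was measured by poly(A) RNA sequencing in 6 libraries, 2 each from parental, DKO and VHL RCC10 cells, grouped by their titles. The authors deposited whole-number read counts per gene symbol. Tools named in the submitters' processing notes are HISAT2 2.2.1, featureCounts 2.0.8, Trimmomatic 0.39, FastQC 0.74 and limma 3.58.1, with no settings, and the builds hg38 and hg19. The table is called normalized, but every small whole number occurs and library scaling factors follow the column totals, so the values were treated as raw counts.

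Genes with at least 1 count in all libraries together were fitted in edgeR 4.0.16 (R 4.3.3) with TMM scaling, a model of 3 group means over all 6 libraries, the quasi-likelihood F-test and a prior count of 0.125. P-values were adjusted by Benjamini-Hochberg over 18273 genes in each comparison. The SE is the Wald error of the fit. The script was tested on simulated counts. Counting intervals for low genes are exact and cover counting error only. No library pair was a duplicate: within a group, counts differed by 2.58 to 6.61 times the chi-square expected from sampling. Alternatives were RLE and upper-quartile factors, median centring, edgeR's filterByExpr, DESeq2 1.42.0, a fit of only the groups compared, a replicate block, and each library left out. All of them reuse the same 6 libraries. Leaving a library out left 1 in its group, so those fits have less power and a lost call there may reflect that.

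The members and all gene lists were chosen with earlier results of these data known, and the background of genes with a mean of at least 10 counts was added after seeing them. Library values are given for members that passed and changed at least 1.5-fold without overlap in some comparison, or that passed in opposite directions. From each other list, genes were named from the 3 with the largest changes in each comparison. Promoters were matched by symbol to a RefSeq table of GRCh38.p14, which has no entry for ARSA, ASAH1, CTSB, CTSK, CTSO, CTSS, HEXA, LAMP2, MANBA, PSAP and SGSH. RPKM used merged exon lengths of GENCODE 29.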

Additional observations from a re-analysis of the deposited data

How the results depend on the processing

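Of 1365 fold changes of the 35 genes recomputed under the 13 alternatives, 1288 kept their side of the threshold, 50 lost and 27 gained their call, and no called change reversed. Within the 1288, 16 changed sign without passing in either fit. The 25 calls in the double knockout became 25 to 28 under the other settings and 21 to 28 with a library left out. With VHL restored 31 became 29 to 31, and 28 to 31. In the direct comparison 29 became 26 to 31, and 24 to 28. Replicate numbers are shared between groups, but deviations of same-numbered libraries correlated at only 0.0699, 0.00603 and 0.0192 across 13702 genes, so the numbers were not taken to pair the libraries. With the number as a replicate block the counts of calls were 27, 31 and 31. Among the 35, depth limits CTSS most.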
